A study of Mus musculus with 9 samples.

Results

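The genes described here form a list of 38 by name: 5 genes of oxygen sensing, 13 further targets of the hypoxia-inducible factors (HIF), 3 carriers of glucose or lactate, 14 glycolytic enzymes and 3 regulators of glycolysis. They were measured by 67 probes of 60 bases, among 55681 probes in all. Of the 38 genes, 37 were among the 18250 genes tested. Mxi1, a transcriptional repressor gene, was not tested, since no array measured its probe above background. The RNA came from peritoneal macrophages of male mice, sorted as CD45+ F4/80+ cells and hybridised to 9 Agilent 1-colour arrays, 3 in each of 3 groups. Group M held migratory macrophages, taken from the upper side of a Transwell in which CT-26 cells were present. No source used here gives the length of that culture. Group T held macrophages co-cultured with CT-26 cells in the lower chamber for 24 h, and group Ctrl held macrophages kept alone in regular medium for 24 h. CT-26 is a mouse colon carcinoma line, and a Transwell has a porous membrane between its chambers. The labels name no strain, genotype or age.

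The groups follow the sample titles. The labels' cell type field goes against them: it calls the T samples migratory and gives the plain peritoneal name to M. Whether replicate arrays stand for separate cultures or mice is not labelled, and the p-values then cover only the spread among these samples, which may be technical. All 3 T arrays were on slide 2 and all M and Ctrl arrays on slide 1. T and the slide therefore cannot be told apart in M against T or in T against Ctrl, whereas M against Ctrl lies within 1 slide. Probes well above background made up 61.0% to 67.0% of the spots on the M arrays, 66.6% to 72.6% on the T arrays and 70.3% to 78.9% on the Ctrl arrays. Replicate spots varied most on M3 and M1, with median coefficients of variation of 26.6% and 19.7%, against 5.63% to 13.1% on the other arrays. Over the tested genes, Ctrl3 correlated with Ctrl1 at r = 0.969 and with Ctrl2 at 0.981. Its r was 0.976 with M2, 0.971 with M1 and 0.970 with T1, so Ctrl3 was nearer to these than to Ctrl1. Pairs within M and within T lay between 0.989 and 0.996. Levels are log2 signals relative to the array's 75th percentile, and differences are between group means of these levels, with the SE of 1 fit over all 9 arrays (n = 3 per group). A gene was called at a limma adjusted p under 0.05, with Benjamini-Hochberg adjustment over all genes tested. Levels of different probes are not compared.

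HIF transcription factors pair an alpha subunit, encoded by Hif1a or Epas1, with the partner Arnt. When oxygen is plentiful, prolyl hydroxylases encoded by Egln1, Egln2 and Egln3 mark the alpha subunits, and the Vhl protein directs them to degradation. When oxygen is scarce, or when inflammatory signals stabilise the alpha subunit, the pair binds short elements in its target genes. Those targets include Egln1 and Egln3 themselves, glucose carriers and most enzymes of glycolysis, the pathway that activated macrophages use heavily.

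Most oxygen-sensing and HIF target genes were higher in T than in Ctrl macrophages. Most glycolytic enzymes were not called in any comparison, but most of all genes tested were also uncalled in each single comparison. In T against Ctrl, 13 of the 17 tested genes of oxygen sensing and HIF targets rose and none fell, and their median difference was 0.92 against -0.14 over all genes. P4ha2, Egln1 and Egln3 led them. Of the 20 genes of glucose transport and glycolysis, 6 rose and none fell, with a median of 0.05. Of all 18250 genes tested, 17.6% were called higher and 27.2% lower in this comparison, 44.7% in all, and 6 members rose 2-fold or more where 9.58% of all genes did. In M against Ctrl, 3 members rose (P4ha2, Egln2 and Pfkfb4) and 2 fell (Car12 and Ankrd37), where 12.2% and 11.1% of all genes were called higher and lower, 23.4% in all. P4ha2 and Egln2 rose 2-fold or more, as did 6.85% of all genes. In M against T, 14 members fell and 1, Pfkfb4, rose, where 10.8% and 14.7% of all genes were called lower and higher, 25.5% in all. No member rose 2-fold or more in M against T, while 7.12% of all genes did. The fallen members were 11 of the 17 oxygen-sensing and HIF target genes and 3 of the 20 genes of glucose transport and glycolysis. T against Ctrl and M against Ctrl share the Ctrl arrays, and both share arrays with M against T, so the 3 sets of values are not independent of each other.

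**Figure D1:**
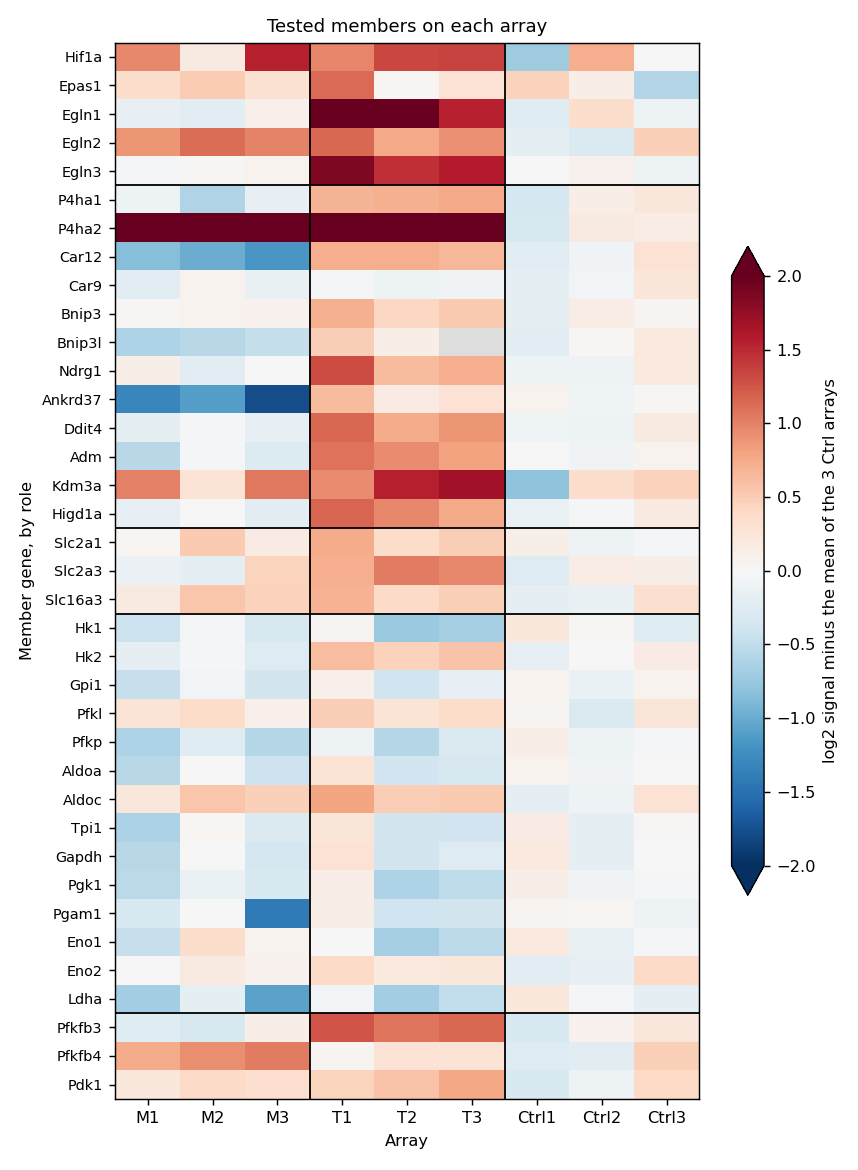
Level of each of the 37 tested members on each array (columns M1 to M3, T1 to T3, Ctrl1 to Ctrl3), as log2 signal minus the gene's mean over the 3 Ctrl arrays. Rows run by role from oxygen sensing at the top to glycolytic regulators at the bottom, separated by lines; colours end at 2 and -2, and the grey cell is a left-out spot. The T columns are red through most of the top rows, from Egln1 to Higd1a, and mixed in the rows from Hk1 to Ldha.

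The letters ACGTG and GCGTG are the core of the element that HIF binds, and the promoters of members that rose in T and of members that did not can be read for them. Promoter sequences were taken from RefSeq on GRCm38.p6 and run from 250 bases before to 50 bases after each gene's start, 300 in all. An entry was found for 34 of the 38 members, and none for Epas1, Bnip3l, Ndrg1 and Slc2a3. Below are the promoters of the 3 oxygen-sensing and HIF target genes with the highest T against Ctrl differences (P4ha2, Egln3 and Egln1) and of the regulator Pfkfb3, all called higher in T. They are followed by those of Pgk1 and Ldha, 2 glycolytic genes that were not called. Each is written 5′ to 3′ on the gene's strand. Capitals mark ACGTG and GCGTG on this strand and their reverse complements CACGT and CACGC, and a run of CACGTG holds an overlapping match on each strand and is also the E-box of other factors.
P4ha2, chr11:54100674-54100973, + strand: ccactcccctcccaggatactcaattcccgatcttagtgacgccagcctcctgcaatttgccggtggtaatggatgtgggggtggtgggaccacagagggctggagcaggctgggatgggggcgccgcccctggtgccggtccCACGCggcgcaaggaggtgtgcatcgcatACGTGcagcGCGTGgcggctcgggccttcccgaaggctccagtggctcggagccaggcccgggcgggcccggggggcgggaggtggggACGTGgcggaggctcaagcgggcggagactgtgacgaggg
Egln3, chr12:54203825-54204124, - strand: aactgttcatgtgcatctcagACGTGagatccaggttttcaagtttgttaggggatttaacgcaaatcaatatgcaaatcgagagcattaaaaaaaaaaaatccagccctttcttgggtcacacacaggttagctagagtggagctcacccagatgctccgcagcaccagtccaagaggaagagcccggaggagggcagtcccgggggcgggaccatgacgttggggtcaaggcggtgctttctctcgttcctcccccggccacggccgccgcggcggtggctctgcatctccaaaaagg
Egln1, chr8:124949205-124949504, - strand: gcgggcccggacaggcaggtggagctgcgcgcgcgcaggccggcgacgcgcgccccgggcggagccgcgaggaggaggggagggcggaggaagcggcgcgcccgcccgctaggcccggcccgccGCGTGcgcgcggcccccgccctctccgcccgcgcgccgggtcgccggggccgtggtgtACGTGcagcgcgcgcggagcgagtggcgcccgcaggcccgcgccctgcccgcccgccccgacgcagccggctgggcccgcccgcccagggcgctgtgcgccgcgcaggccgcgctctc
Pfkfb3, chr2:11502041-11502340, - strand: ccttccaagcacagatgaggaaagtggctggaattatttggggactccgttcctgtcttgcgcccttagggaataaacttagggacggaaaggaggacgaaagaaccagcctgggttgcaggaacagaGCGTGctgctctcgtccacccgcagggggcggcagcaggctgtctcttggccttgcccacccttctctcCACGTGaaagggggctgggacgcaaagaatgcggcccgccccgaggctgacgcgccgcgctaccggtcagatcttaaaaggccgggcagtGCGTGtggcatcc
Pgk1, chrX:106186850-106187149, + strand: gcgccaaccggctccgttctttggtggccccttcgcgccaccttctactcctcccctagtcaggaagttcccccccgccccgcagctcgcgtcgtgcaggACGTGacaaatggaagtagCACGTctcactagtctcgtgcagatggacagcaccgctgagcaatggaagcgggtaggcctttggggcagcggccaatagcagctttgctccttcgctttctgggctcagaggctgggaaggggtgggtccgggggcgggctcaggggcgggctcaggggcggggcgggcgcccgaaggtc
Ldha, chr7:46845554-46845853, + strand: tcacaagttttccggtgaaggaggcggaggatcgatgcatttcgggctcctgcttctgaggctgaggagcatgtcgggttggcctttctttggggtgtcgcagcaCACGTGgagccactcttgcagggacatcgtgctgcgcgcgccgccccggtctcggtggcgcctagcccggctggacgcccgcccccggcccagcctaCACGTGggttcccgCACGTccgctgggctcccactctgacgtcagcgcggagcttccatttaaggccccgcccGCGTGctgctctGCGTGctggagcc

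Both kinds of member carried these letters. The printed promoters held 4 matches for P4ha2, 2 for Egln1, 1 for Egln3 and 4 for Pfkfb3, against 2 for the uncalled Pgk1 and 7 for Ldha. Pfkfb3 and Ldha each have 2 promoter entries, with 5 and 9 matches in all, and the one with more matches is printed. A match on either strand, in any promoter of the gene, was present for 16 of the 17 members called higher in T that had a promoter entry (94.1%) and for 13 of the 16 tested and uncalled members (81.2%). Over all 27025 genes with an entry the share was 46.7%. The stricter letters ACGTG, on either strand, were present for 76.5% of the called and 56.2% of the uncalled members, and for 21.8% of all genes. The 4 members without a match in this window were Car12, Eno2, Gpi1 and Tpi1. These counts describe letters in 1 window and say nothing of binding. Among the uncalled members, the probes that stood for Hk1, Pgk1 and Eno1 are placed on another chromosome than the gene. Their place among the uncalled is less certain.

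Among the genes of oxygen sensing, Egln1 and Egln3 were high in T alone. Egln1, the main prolyl hydroxylase acting on HIF alpha subunits, was at -2.23, -2.30 and -1.97 on the M arrays, at -0.03, -0.09 and -0.51 on the T arrays and at -2.32, -1.72 and -2.18 on the Ctrl arrays. The T arrays all lay above the rest, and M and Ctrl overlapped. Egln1 rose 3.64-fold in T against Ctrl (1.86 ± 0.21, adjusted p = 0.00017 by limma) and was 3.88-fold lower in M than in T (-1.96, adjusted p = 0.00014), while M minus Ctrl was -0.09 with a 95% interval from -0.57 to 0.38. Egln3, a hydroxylase of the same family, was at 2.60, 2.67 and 2.72 in M, at 4.50, 4.10 and 4.21 in T and at 2.65, 2.74 and 2.54 in Ctrl. It showed the same arrangement, with T apart and M and Ctrl overlapping. It rose 3.09-fold in T against Ctrl (1.63 ± 0.16, adjusted p = 7.92e-05) and was 3.05-fold lower in M than in T, and its M minus Ctrl difference was 0.02 (95% interval -0.35 to 0.39). Its second probe gave 1.87, -1.64 and 0.23 for the same T minus Ctrl, M minus T and M minus Ctrl differences, with the same calls.

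Egln2, the third hydroxylase, was high in both co-cultured groups. It was at 3.43, 3.67 and 3.55 in M, at 3.70, 3.31 and 3.47 in T and at 2.35, 2.26 and 3.03 in Ctrl. M and T overlapped, and both lay above every Ctrl array. Egln2 rose in M against Ctrl (means 3.55 in M and 2.55 in Ctrl, SE of the difference 0.22, adjusted p = 0.013 by limma) and 1.93-fold in T against Ctrl (0.95 ± 0.22, adjusted p = 0.0078), while M minus T was 0.06 (95% interval -0.44 to 0.55). The M against Ctrl call ended without Ctrl2, at an adjusted p of 0.057. Its second probe was not called in either comparison, at 0.47 for M minus Ctrl and 0.45 for T minus Ctrl.

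The genes of the HIF alpha subunits changed less clearly. Hif1a was at 0.38, -0.40 and 0.98 in M, at 0.39, 0.76 and 0.78 in T and at -1.30, 0.15 and -0.58 in Ctrl. Every T array lay above every Ctrl array, and the M arrays spread over both. Hif1a rose 2.33-fold in T against Ctrl (1.22 ± 0.40, adjusted p = 0.031 by limma), and M minus Ctrl was 0.90 without a call (adjusted p = 0.12). Without T2, T3, Ctrl1 or Ctrl3 the T against Ctrl call ended, at adjusted p-values up to 0.11, and without M2 the M against Ctrl difference was called, at 0.045. Epas1, which encodes the alpha subunit HIF-2 alpha, was at -1.72, -1.55 and -1.77 in M, at -0.94, -2.03 and -1.78 in T and at -1.61, -1.94 and -2.65 in Ctrl by its brightest probe. The groups overlapped, and no comparison was called by that probe. Another Epas1 probe, on mm9 chromosome 17 from 87232615 to 87232674, gave -1.87, -2.05 and -1.62 in M, -3.21, -3.01 and -3.01 in T and -4.99, -4.57 and -3.99 in Ctrl. By this probe the groups did not overlap and all 3 differences were called: 1.23 for M minus T, 2.67 for M minus Ctrl and 1.44 for T minus Ctrl. The third Epas1 probe, close to the brightest one, was not called. Against Ctrl all 3 probes gave positive differences, from 0.06 to 2.67 in M and from 0.45 to 1.44 in T, with 1 probe called. In M minus T they ran from -0.39 to 1.23. With the mean of its probes Epas1 was called higher in M and in T than in Ctrl. The probes of Epas1 thus differ in size and calls against Ctrl, and its direction in M against T is not settled here.

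Among the other HIF targets, P4ha2, a catalytic subunit of the collagen prolyl 4-hydroxylase, had the widest differences of all members. It was at -0.55, -0.66 and -0.42 in M, at 1.76, 1.82 and 1.56 in T and at -3.44, -2.96 and -2.99 in Ctrl. The 3 groups were separate, with T highest and Ctrl lowest. P4ha2 rose 28.7-fold in T against Ctrl (4.84 ± 0.18, adjusted p = 4.33e-07 by limma) and by 2.58 ± 0.18 on the log2 scale in M against Ctrl (adjusted p = 6.79e-06), and was 4.78-fold lower in M than in T (-2.26 ± 0.18). The probe lies on mm9 chromosome 11 from 53945032 to 53945091. P4ha1, the other catalytic subunit, rose less, 1.64-fold in T against Ctrl (0.71 ± 0.21, adjusted p = 0.019). It was 2.01-fold lower in M, at -0.81, -1.31 and -0.87, than in T, at -0.03, 0.00 and 0.06, with no overlap. Its Ctrl arrays, at -1.07, -0.58 and -0.47, overlapped M, and its T against Ctrl call ended without T2, T3 or Ctrl1 (adjusted p up to 0.068). The second P4ha1 probe was also called higher in T against Ctrl (1.10) but not lower in M against T (-0.85).

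Ankrd37 and Car12 were low in M. Ankrd37, an ankyrin repeat gene used as a hypoxia marker, was at 2.85, 3.06 and 2.38 in M, at 4.79, 4.32 and 4.44 in T and at 4.22, 4.08 and 4.18 in Ctrl. Every M array lay at least a full log2 unit below every Ctrl array. Ankrd37 fell 2.62-fold in M against Ctrl (-1.39 ± 0.21, adjusted p = 0.0014 by limma) and 3.36-fold in M against T, while T minus Ctrl was 0.36 without a call. Car12, a membrane carbonic anhydrase that handles acid, was at 2.09, 1.96 and 1.78 in M, at 3.67, 3.67 and 3.61 in T and at 2.72, 2.88 and 3.24 in Ctrl. The 3 groups did not overlap, with M lowest. Car12 fell 2.01-fold in M against Ctrl (adjusted p = 0.0040 by limma) and 3.27-fold in M against T, and it rose 1.63-fold in T against Ctrl (0.70 ± 0.18, adjusted p = 0.011). The M against Ctrl call of Car12 ended under median scaling (adjusted p = 0.064), in the authors' deposited table (0.056) and without M1 and M3 (0.094), and that of Ankrd37 in the last 2 of these (0.053 and 0.061). In the deposited table the T against Ctrl call of Car12 (adjusted p = 0.42) and the M against T call of Ankrd37 (0.076) also ended. Car9, the related anhydrase gene often taken as a hypoxia marker in tumours, was not called in any comparison, with differences from -0.10 to -0.02 and 95% intervals that together ran from -0.48 to 0.35.

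Adm, Higd1a and Ddit4 were high in T and near Ctrl in M. Adm, the vasodilator peptide adrenomedullin, was at 1.87, 2.38 and 2.15 in M, at 3.51, 3.37 and 3.22 in T and at 2.43, 2.35 and 2.49 in Ctrl. Higd1a, a mitochondrial protein induced by hypoxia, was at 3.96, 4.13 and 3.93 in M, at 5.29, 5.09 and 4.89 in T and at 3.99, 4.09 and 4.32 in Ctrl. Ddit4, an inhibitor of mTOR signalling, was at 3.30, 3.45 and 3.32 in M, at 4.64, 4.22 and 4.36 in T and at 3.39, 3.39 and 3.67 in Ctrl. In all 3 genes the T arrays lay above every M and Ctrl array, and M overlapped Ctrl. In T against Ctrl they rose 1.92-fold, 1.94-fold and 1.90-fold (limma adjusted p 0.0028, 0.0023 and 0.0027), and in M against T they fell 2.35-fold, 2.12-fold and 2.08-fold (adjusted p 0.00083, 0.0015 and 0.0018). Their M minus Ctrl differences were -0.29, -0.13 and -0.13, with 95% intervals within -0.69 and 0.26.

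Kdm3a, a histone demethylase, was at -0.20, -0.95 and -0.16 in M, at -0.27, 0.35 and 0.46 in T and at -2.02, -0.87 and -0.75 in Ctrl. T lay above Ctrl throughout, Ctrl1 stood more than 1 log2 unit below the other Ctrl arrays, and M overlapped both groups. Kdm3a rose 2.63-fold in T against Ctrl (1.39 ± 0.36, adjusted p = 0.012 by limma), with no call for M. Ndrg1, a stress-responsive gene, rose 1.85-fold in T against Ctrl and fell 1.90-fold in M against T (adjusted p 0.0081 and 0.010). Bnip3, which promotes the removal of mitochondria, rose 1.46-fold in T against Ctrl (adjusted p = 0.023), a call that ended without T1, T3 or Ctrl1 (adjusted p up to 0.078). The M minus T difference of Bnip3 was -0.49 (adjusted p = 0.054) and was called without Ctrl1 or Ctrl3. Another Bnip3 probe was at 0.63, -1.30 and 0.65 in M and at 2.08, 2.34 and 2.22 in T, and was called lower in M against T (-2.22, adjusted p = 0.0073), while the third was not (-0.48). Its relative Bnip3l was fitted with T1 and T2 only, since the T3 spot was an outlier. By its brightest probe Bnip3l fell 1.81-fold in M against T (adjusted p = 0.015, but 0.10 without T1) and was not called elsewhere. The other 3 Bnip3l probes were called higher in T than in Ctrl (0.57 to 1.13), and 2 of them lower in M than in Ctrl (-0.84 and -1.09).

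**Figure D2:**
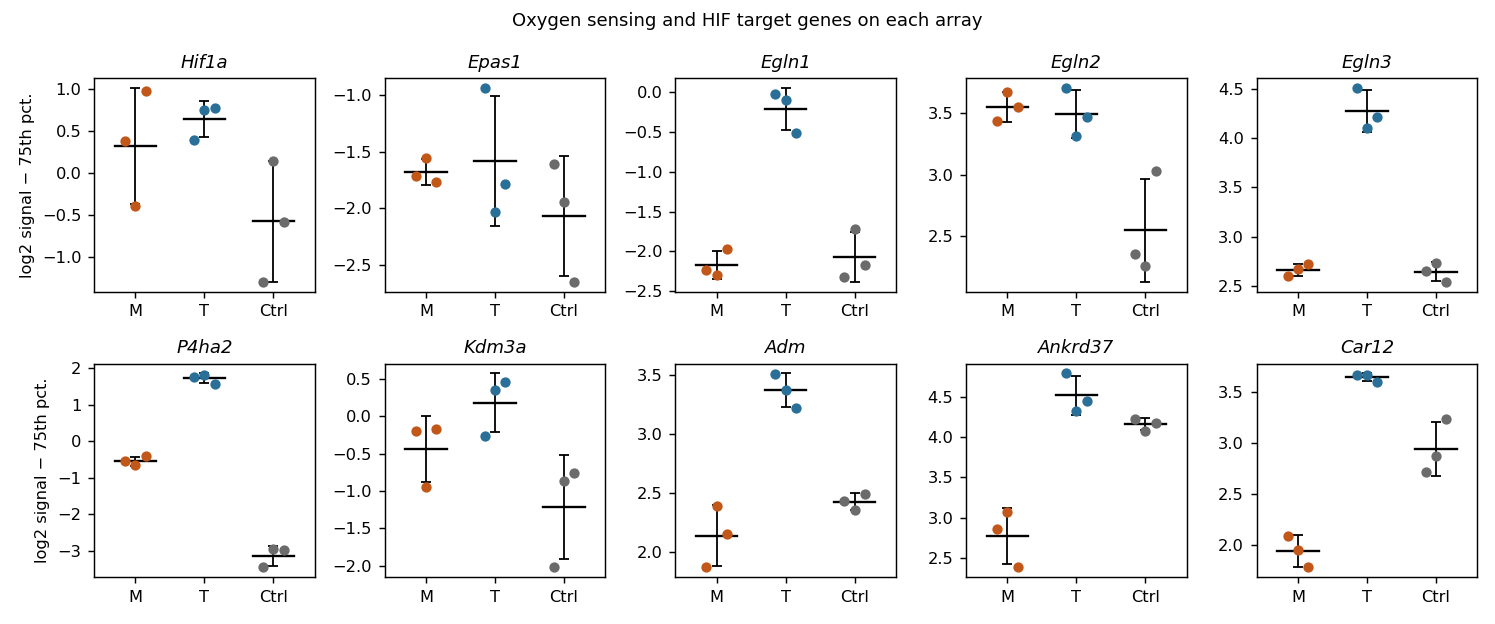
Level of 10 oxygen-sensing and HIF target genes on each array (points), with group mean (line) and SD (bar), for M, T and Ctrl; the vertical axis is the log2 signal relative to the array's 75th percentile and has its own range in each panel. Egln1, Egln3 and Adm stand apart in T, Egln2 lies above Ctrl in M and T, Ankrd37 and Car12 are lowest in M, and Epas1 overlaps in all groups by its brightest probe.

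Among the carriers, Slc2a1, the glucose carrier GLUT1, was at 4.63, 5.12 and 4.75 in M, at 5.33, 4.95 and 5.07 in T and at 4.71, 4.49 and 4.57 in Ctrl. T lay above Ctrl without overlap, and M overlapped both. Slc2a1 rose 1.44-fold in T against Ctrl (0.53 ± 0.19, adjusted p = 0.042 by limma), close to the threshold, and the call ended without M3 or any single T or Ctrl array (adjusted p up to 0.13). Slc2a3, the glucose carrier GLUT3, was at 1.60, 1.51 and 2.15 in M, at 2.44, 2.76 and 2.67 in T and at 1.46, 1.85 and 1.83 in Ctrl. Its T arrays lay above the others, and M overlapped Ctrl. Slc2a3 rose 1.88-fold in T against Ctrl (adjusted p = 0.0077) and fell 1.82-fold in M against T (adjusted p = 0.015), the second call ending without M1, M2, T2 or T3 (adjusted p up to 0.064). Slc16a3, the lactate exporter MCT4, was not called by its brightest probe, with T minus Ctrl at 0.52 (adjusted p = 0.053, and 0.010 without Ctrl3). Without Ctrl3 its M minus Ctrl difference of 0.39 was called as well (adjusted p = 0.031). The other Slc16a3 probe, which overlaps the first, was called higher in T against Ctrl (0.60) and not in M against Ctrl (0.36).

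Of the 14 glycolytic enzymes, 2 rose in T against Ctrl (Hk2 and Aldoc), none was called in M against Ctrl, and 1, Hk2, fell in M against T. Shares over all genes were 17.6% called higher in T against Ctrl, 23.4% called in M against Ctrl and 10.8% lower in M against T. Hk2, the inducible hexokinase that starts the pathway, was at 2.84, 3.00 and 2.76 in M, at 3.65, 3.49 and 3.60 in T and at 2.87, 3.01 and 3.20 in Ctrl. All T arrays lay above the rest, and M overlapped Ctrl. Hk2 rose 1.47-fold in T against Ctrl (0.55 ± 0.16, adjusted p = 0.020 by limma) and fell 1.64-fold in M against T (adjusted p = 0.010), the first call ending without T1, T3, Ctrl1 or Ctrl2 (adjusted p up to 0.073). Aldoc, an aldolase, rose 1.52-fold in T against Ctrl (0.60 ± 0.19, adjusted p = 0.027), a call that ended without any single T array, Ctrl1 or Ctrl2 (adjusted p up to 0.089). Its M minus Ctrl difference was 0.42 and uncalled (adjusted p = 0.13), and leaving out Ctrl3 gave a call (adjusted p = 0.028).

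Gapdh, Pgk1 and Ldha, all of the later part of the pathway, were not called. Gapdh was at 5.93, 6.47 and 6.12 in M, at 6.77, 6.11 and 6.23 in T and at 6.68, 6.29 and 6.47 in Ctrl. Pgk1 was at 5.25, 5.65 and 5.48 in M, at 5.93, 5.18 and 5.28 in T and at 5.90, 5.72 and 5.75 in Ctrl. Ldha, which makes lactate from pyruvate, was at 5.46, 5.94 and 5.08 in M, at 6.09, 5.45 and 5.64 in T and at 6.35, 6.11 and 5.97 in Ctrl. T1 was the highest T array for all 3 genes and lay within or above the Ctrl arrays, and T2 and T3 lay below every Ctrl array. The T minus Ctrl differences were -0.11 for Gapdh (95% interval -0.61 to 0.39), -0.33 for Pgk1 (-0.82 to 0.16) and -0.41 for Ldha (-0.98 to 0.15). M minus Ctrl was -0.30, -0.33 and -0.65, with adjusted p-values of 0.33, 0.28 and 0.084. Without T1 the Pgk1 difference was called lower in T (-0.56, adjusted p = 0.044 by limma). The only Pgk1 probe is placed on chromosome 3 while the gene is on X, so its values are uncertain. Without M2 Ldha was called lower in M than in Ctrl (adjusted p = 0.035).

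The remaining glycolytic enzymes were Hk1, Gpi1, Pfkl, Pfkp, Aldoa, Tpi1, Pgam1, Eno1 and Eno2. None was called in any comparison by the probe that stood for it, with T minus Ctrl between -0.45 (Hk1) and 0.38 (Pfkl). Leaving out 1 array gave a call for 3 of these: Hk1 was called lower in T without T1 (adjusted p = 0.028 by limma), and Pfkl and Eno2 were called higher in T without Ctrl3 (0.036 and 0.028). The median over all 14 enzymes was -0.16 in T against Ctrl, -0.29 in M against Ctrl and -0.17 in M against T, beside -0.14, -0.09 and 0.11 over all genes. No spot of these probes was saturated. The SEs of their differences lay between those of Hk2 (0.16) and Pgam1 (0.33), and no interval shows that the groups are alike.

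**Figure D3:**
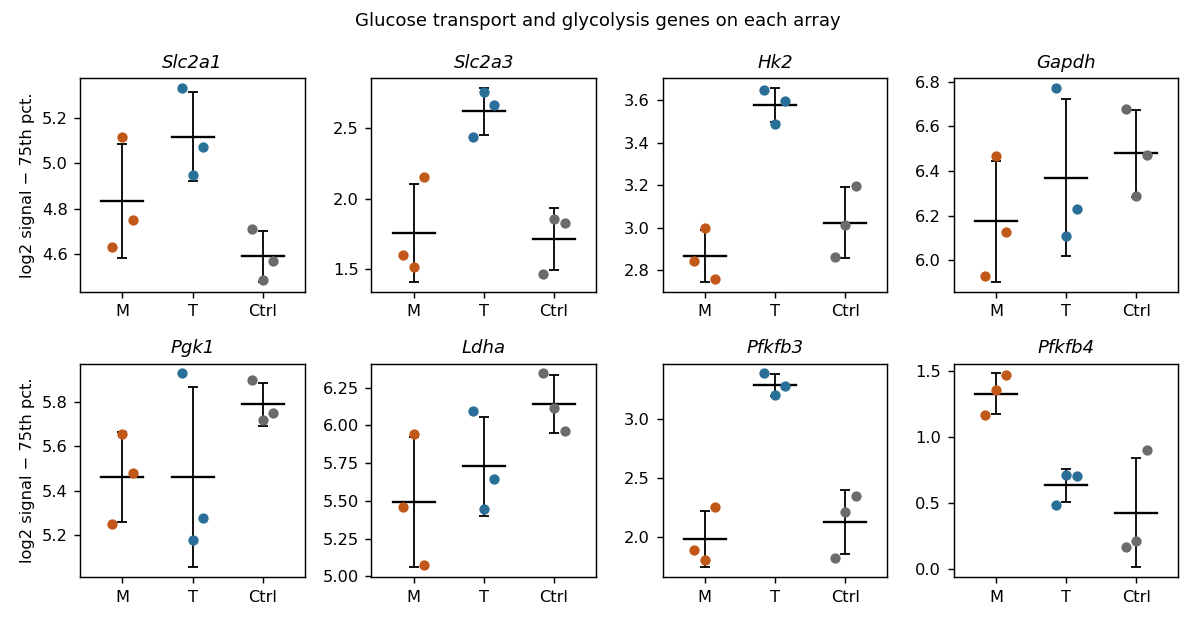
Level of 8 genes of glucose transport and glycolysis on each array (points), with group mean (line) and SD (bar), for M, T and Ctrl; the vertical axis is the log2 signal relative to the array's 75th percentile and has its own range in each panel. Slc2a3, Hk2 and Pfkfb3 lie highest in T without overlap, Pfkfb4 lies highest in M, and Gapdh, Pgk1 and Ldha overlap between T and Ctrl.

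The 3 regulators of glycolysis differed from one another. Pfkfb3, which makes the activator fructose 2,6-bisphosphate, was at 1.89, 1.81 and 2.26 in M, at 3.38, 3.21 and 3.28 in T and at 1.83, 2.21 and 2.35 in Ctrl. T stood apart, and M overlapped Ctrl. Pfkfb3 rose 2.23-fold in T against Ctrl (1.16 ± 0.20, adjusted p = 0.0015 by limma) and fell 2.47-fold in M against T (-1.30 ± 0.20, adjusted p = 0.0010), and both of its probes were called in both comparisons. Pfkfb4, its paralog, was at 1.17, 1.35 and 1.47 in M, at 0.49, 0.71 and 0.70 in T and at 0.16, 0.21 and 0.90 in Ctrl, so that M lay above both other groups. It rose 1.87-fold in M against Ctrl (adjusted p = 0.018) and 1.62-fold in M against T (adjusted p = 0.041). The first call ended without M3, Ctrl1 or Ctrl2 (adjusted p up to 0.075), and the second without Ctrl2 or any single M or T array (adjusted p up to 0.13). The second Pfkfb4 probe was not called in M against T (0.70). Pdk1, a kinase that inhibits pyruvate dehydrogenase, rose 1.51-fold in T against Ctrl (0.59 ± 0.20, adjusted p = 0.038 by limma). That call ended without M1, M3, T2, T3, Ctrl1 or Ctrl2 (adjusted p up to 0.14). Without Ctrl3, Pdk1 was called higher in M than in Ctrl (adjusted p = 0.033) and Pfkfb4 higher in T than in Ctrl (adjusted p = 0.041).

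**Figure D4:**
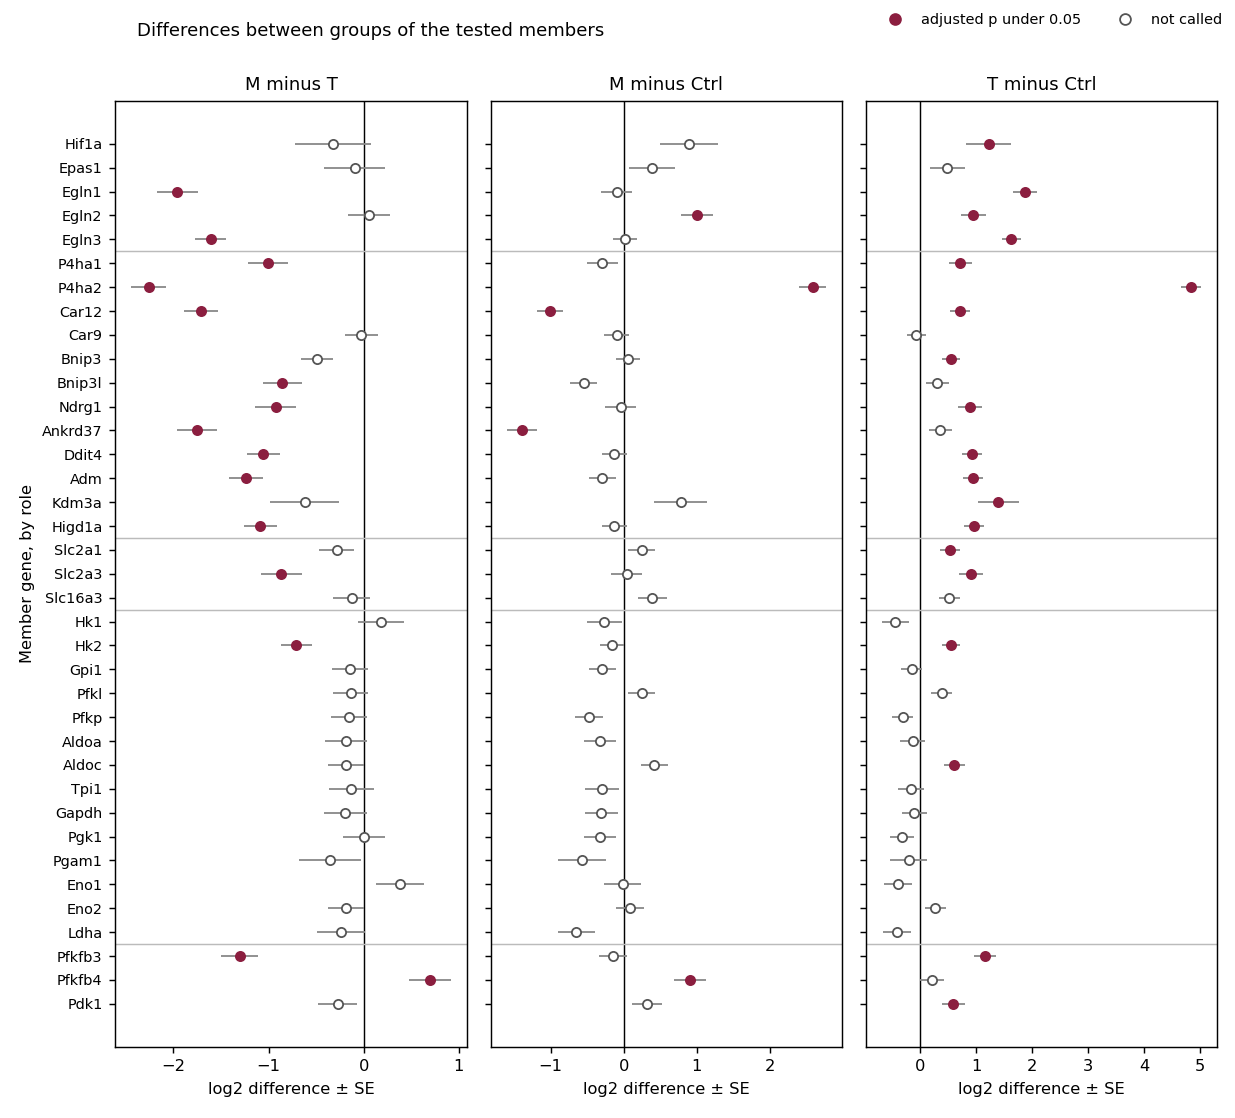
Differences of the 37 tested members for M minus T, M minus Ctrl and T minus Ctrl, as log2 differences with the SE of the fit; filled points were called at an adjusted p under 0.05, open points were not, and horizontal lines separate the 5 roles. The horizontal ranges differ between the panels. In T minus Ctrl the filled points crowd the upper rows, and the enzymes from Hk1 to Ldha are open but for Hk2 and Aldoc.

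Set against each gene's own Ctrl mean, the median of the oxygen-sensing and HIF target genes was -0.11, -0.01 and 0.00 on the M arrays, 1.09, 0.74 and 0.78 on the T arrays and -0.19, 0.03 and 0.18 on the Ctrl arrays. Each T array lay above every other array. The median of the genes of glucose transport and glycolysis was -0.27, 0.00 and -0.10 on the M arrays, 0.29, -0.08 and 0.03 on the T arrays and 0.06, -0.10 and 0.04 on the Ctrl arrays. Only T1 lay apart on the upper side, and T2 and T3 fell among the Ctrl arrays. In T against Ctrl the arrays did not overlap for 14 of the 17 genes of the first set and 9 of the 20 of the second, where 53.5% of all genes did not overlap. In M against T the counts were 12 of 17 and 6 of 20, with 48.4% of all genes. In M against Ctrl they were 5 of 17 and 4 of 20, with 36.3% of all genes. Scaling each array to its median moved the T minus Ctrl median of all genes to 0.28, that of the first set to 1.35 and that of the second to 0.47. The same scaling moved the M minus Ctrl medians to 0.21 for all genes, 0.21 for the first set and 0.15 for the second, which changes the sign of all 3. Under it 5124 of 7756 genes called in T against Ctrl were higher, in place of 3208 of 8166. The members called numbered 24 in T against Ctrl, all higher, and 5 in M against Ctrl, 4 of them higher. In bulk RNA, fewer cells with a transcript and less of it per cell cannot be told apart.

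**Figure D5:**
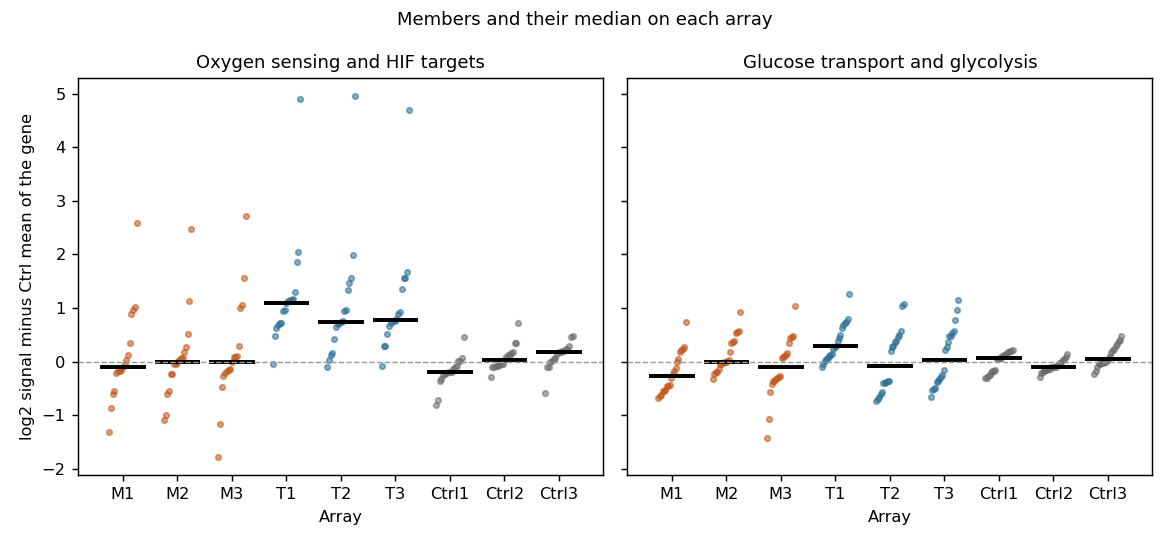
Tested members on each array as log2 signal minus the gene's Ctrl mean (points, sorted within each array), with the median over members (black line), for oxygen sensing and HIF targets at left and glucose transport and glycolysis at right; arrays run M, T, Ctrl. The left medians lie between 0.74 and 1.09 on the T arrays and between -0.19 and 0.18 on all others, and the right medians lie between -0.27 and 0.29 on all arrays.

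Of the 67 member probes, 6 are placed by the array on a chromosome other than the gene's own on mm9. These are the only probe of Eno1 (chromosome 2, gene on 4), the only probe of Pgk1 (chromosome 3, gene on X), the probe that stood for Hk1 (chromosome 5, gene on 10) and 3 Gapdh probes (chromosomes X, 8 and 7, gene on 6). Near-identical copies of these genes could share signal, so Eno1 and Pgk1 are uncertain. With probes on the gene's own chromosome only, 35 members were tested, 19 were again called in T against Ctrl, and the median of glucose transport and glycolysis was 0.26 in place of 0.05. The other 2 Hk1 probes gave T minus Ctrl differences of 0.26 and 0.63 without a call, against -0.45 for the one that stood for it, and 1 of them was called lower in M than in T (-0.99). The 8 Gapdh probes ran between -0.32 and 0.27 for T minus Ctrl, none called. The second Pfkp probe was called lower in T (-0.92), while the one that stood for Pfkp was not (-0.32).

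Further genes of the same pathways were taken from lists drawn up by function. Of 22 other genes of the HIF system and its targets, 11 rose and 3 fell in T against Ctrl, 8 rose and none fell in M against Ctrl, and 4 rose and 8 fell in M against T. Of all genes, 17.6% and 27.2% were called higher and lower in T against Ctrl, 12.2% and 11.1% in M against Ctrl, and 14.7% and 10.8% in M against T. Pgf, the placental growth factor, was at -0.82, -0.50 and -0.60 in M, at 1.62, 1.22 and 1.20 in T and at -2.97, -3.08 and -3.24 in Ctrl. It had the same order as P4ha2, with T highest and Ctrl lowest, and rose 21.8-fold in T and 5.50-fold in M against Ctrl. Plod2, a lysyl hydroxylase of collagen, ran otherwise, at -1.40, -1.71 and -1.21 in M, at -5.67, -5.99 and -6.24 in T and at -4.20, -4.31 and -5.64 in Ctrl. It rose 9.68-fold in M against Ctrl (adjusted p = 0.00013 by limma) and fell 2.38-fold in T against Ctrl (adjusted p = 0.017). Its levels in T and on Ctrl3 lay near the lowest signals well above background on those arrays, so the size of the fall is uncertain. Rora, a nuclear receptor, rose in T against Ctrl by 1.84 and was not called in M against Ctrl (-0.55). Vegfa, Vhl and Arnt were named after their values were seen. Vegfa, the vascular growth factor, rose by 1.25 in T and by 0.52 in M against Ctrl. Vhl, which encodes the recognition subunit for hydroxylated HIF, rose by 1.07 in T and was at 0.19 without a call in M, and Arnt rose by 0.62 in M and was at -0.15 without a call in T.

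Of 17 further tested genes of glycolysis and fructose bisphosphate metabolism, 3 rose and 2 fell in T against Ctrl and likewise 3 and 2 in M against Ctrl, and 3 rose and none fell in M against T. The 3 of 17 that rose in T against Ctrl stand beside 17.6% of all genes, and the 2 that fell beside 27.2%. Hk3, the hexokinase typical of myeloid cells, was at 2.26, 1.55 and 1.78 in M, at 0.72, 0.61 and 0.73 in T and at -0.48, -0.82 and -0.68 in Ctrl. M lay highest and Ctrl lowest with no overlap, and Hk3 rose 5.75-fold in M and 2.54-fold in T against Ctrl (adjusted p 1.71e-05 and 0.00090 by limma). Fbp1, a gluconeogenic phosphatase, rose by 2.88 in M and 3.13 in T against Ctrl, and only 1 of 3 Ctrl arrays measured it above background. Ldhc, a lactate dehydrogenase gene, fell in both comparisons, at -1.19 in M and at -1.68 in T, with Ctrl arrays that spread from 1.32 to -0.01. Of 11 genes of pyruvate carriers, the pyruvate dehydrogenase complex and its regulators, Pdp2, an activating phosphatase, fell by 1.18 in T against Ctrl. Pdhx, a component of the same complex, rose by 1.24 in M against Ctrl. Of 8 pentose phosphate genes, Pgls rose (0.51) and Rpe fell (-0.71) in T against Ctrl, and H6pd rose (0.71) in M against Ctrl.

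The sorted cells carried macrophage RNA: all 10 macrophage markers were well above background on all 9 arrays, and their summed signal was 189 to 267 times the array's 75th percentile in M, 162 to 220 in T and 200 to 240 in Ctrl. Of these, 3 rose and 1 fell in M against T, 4 rose and none fell in M against Ctrl, and 3 rose and none fell in T against Ctrl. The sort marker gene Adgre1 was 2.76 higher in M than in T and 2.86 higher than in Ctrl, and Mertk fell in M against T (-2.26) and was 2.74 higher in T than in Ctrl. Of 10 markers of carcinoma epithelium, 8 were tested, and in T against Ctrl Krt19 rose by 3.63 and Elf3 by 1.46 while Epcam, Krt7, Cldn4 and Ocln fell. In M against T, Krt19 and Elf3 fell (-4.32 and -1.55), in the same direction as the HIF targets, and Epcam and Ocln rose (1.26 and 1.21), and in M against Ctrl none was called. Their summed signal was 0.918 to 1.33 in M, 1.54 to 1.64 in T and 1.15 to 2.21 in Ctrl, and Cdh1 was well above background on no M or T array and on 2 Ctrl arrays. Of 10 granulocyte markers, 8 were tested, of which 2 rose in M, and 1 rose and 3 fell in T, against Ctrl, with sums of 19.5 to 27.2 in M, 18.1 to 23.5 in T and 15.5 to 25.4 in Ctrl. S100a8 rose by 4.97 in M and 3.06 in T against Ctrl, and Ly6g was well above background on no M or Ctrl array and on 1 T array. Sums of T and NK cell markers were 2.19 to 2.81 in M, 2.27 to 2.46 in T and 2.34 to 3.55 in Ctrl, and those of B cells were 8.47 to 12.5 in M, 11.1 to 18.9 in T and 14.4 to 14.6 in Ctrl, with Cd8a and Ms4a1 above background nowhere. Sums of fibroblast and mesothelial markers were at most 0.267 in all groups. The part of these cells in the differences of the members was not tested.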

How the data were processed

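Per the submitters' processing notes, the authors' extraction software was Agilent Feature Extraction 10.7.3.1. Per the file headers, the deposited scanner files give every spot an intensity from which background was subtracted, with no scaling across arrays, with flags for spots well above background or outlying. Here control spots and outlier spots were left out, spots of a probe averaged, log2 taken and the array's 75th percentile subtracted. Probes were named through RefSeq accessions (26762 of 55681) or by the array (5874). A gene was tested where a probe cleared background on every array of 1 group or more, and its brightest such probe stood for it. Group means of 9 arrays were fitted with limma 3.58.1 (lmFit, eBayes) in R 4.3.3, with Benjamini-Hochberg adjustment over 18250 genes; probes were fitted alike. The 95% intervals are not adjusted. The procedure was tested on simulated data.

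Values on every array are given for called members with a log2 difference of 1 or more and no overlap, and for 10 members whatever they did. From the other pathway lists, up to 4 called genes a list with the largest differences are named; some of these are not reported here. The members and lists were chosen with earlier results of these data known. Same-numbered T and Ctrl arrays deviated together (r = 0.55, 0.12 and 0.37), though weakly for replicate 2, so they may be paired. Those of M and T (-0.27, -0.14 and 0.03) and of M and Ctrl (-0.27, -0.19 and 0.02) did not. The T against Ctrl values above come from the fit without pairing. Counts with the replicate number as a block are given below. The number of arrays limits the precision.

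A deposited table of the same arrays, partly linear intensity and partly log2 values by comparison with the scanner files, served as an alternative. Columns M1 and M2 there matched the opposite scanner files within 0.001 on the log2 scale, and its T2 column equalled none, so its scale and centring there stay unknown.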

Additional observations from a re-analysis of the deposited data

How the results depend on the processing

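No called difference of a member changed direction under the settings tried, while some uncalled ones crossed 0, such as Ankrd37 in T minus Ctrl (-0.08 to 0.78). Of the called members, 6 of 15 in M against T (P4ha2, Egln1, Egln3, Car12, Adm and Pfkfb3), 1 of 5 in M against Ctrl (P4ha2) and 8 of 19 in T against Ctrl (P4ha2, Egln1, Egln2, Egln3, Adm, Ddit4, Higd1a and Pfkfb3) were called under every setting tried. The deposited table gave 7 calls in M against T, 3 in M against Ctrl and 10 in T against Ctrl, where 1408, 2054 and 6003 genes were called in all, against 4646, 4263 and 8166 here. Array weights gave 23, 14 and 27, with 11395, 9613 and 11660 genes called in all. Of the 27, 23 were higher and 4, Hk1, Pgk1, Eno1 and Ldha, lower in T. The cause was not tested. The probes that stood for Hk1, Pgk1 and Eno1 are placed on a chromosome other than the gene's own. The other Hk1 probes gave positive T minus Ctrl differences in the main fit. Leaving out 1 array gave 13 to 16 calls in M against T, 3 (without Ctrl2) to 8 (without Ctrl3) in M against Ctrl, and 12 (without T3 or without Ctrl1) to 21 in T against Ctrl. The calls over all genes moved too: 2879 (without T3) to 6216 (without Ctrl3) in M against T, 1861 (without M3) to 8276 (without Ctrl3) in M against Ctrl, with 1953 without Ctrl2, and 5466 (without T3) to 10523 (without Ctrl3) in T against Ctrl. Quantile normalization gave 8 calls in M against Ctrl. The replicate number as a block gave 15, 5 and 18 calls, and 19 in a fit of T and Ctrl alone, chosen after seeing the data; it ended the call of Slc2a1 in the fit of 3 groups, at an adjusted p of 0.075, and no other called member. Without M1 and M3, also chosen after seeing the data, there were 9 calls in M against T and 1 in M against Ctrl (2473 and 970 over all genes), with the lone M array assumed to vary like the other groups, and the glucose transport and glycolysis medians were 0.089 in M minus T and 0.00031 in M minus Ctrl.

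The oxygen-sensing and HIF target median in M minus T was -0.80 with normexp background correction and -0.79 in the deposited table, and under median scaling it was 0.21 in M minus Ctrl and 1.35 in T minus Ctrl. The glucose transport and glycolysis median was -0.012 under quantile normalization and 0.15 under median scaling in M minus Ctrl. In T minus Ctrl it was 0.23 and 0.47 under those settings, 0.20 with the mean of a gene's probes and 0.26 with probes on the gene's own chromosome. Leaving out 1 array moved the first median over -1.05 to -0.85, -0.17 to -0.03 and 0.81 to 0.99 in M minus T, M minus Ctrl and T minus Ctrl, and the second over -0.28 to -0.05, -0.21 to -0.05 and -0.04 to 0.17.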
